A study of Mus musculus with 96 samples.

Results

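The 10 genes described here act in germ cells and in the piRNA pathway: Ddx4, Dazl, Piwil2, Mael, Asz1, Mov10l1, Tdrd1, Tdrd9, Tdrkh and Stk31. All 10 were found among the 37620 genes of each of the 7 deposited count tables of mouse embryonic stem cells (ESCs). PIWI proteins bind short RNAs (piRNAs) that match transposons, and in the germ line they cut transposon transcripts and direct DNA methylation to transposon promoters. Tudor domain proteins, helicases and proteins of the germ granule (nuage) assemble with them. Promoters of many such genes are known to be held silent in ESCs by PRC1.6, a Polycomb complex that contains PCGF6, RING1B, RYBP, L3MBTL2, E2F6 and the E-box proteins MGA and MAX.

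These genes were examined in 7 comparisons of perturbed with control ESCs, each with 2 RNA-seq libraries per group in a table of its own. In the R7.15 line, which carries a floxed Rybp, Rybp-/- ESCs were compared with Rybp+/+ ESCs. Knockout was induced with 5 µM 4-OHT for 4 days. The labels give 4-OHT for the Rybp-/- ESCs only, so RYBP loss and 4-OHT exposure cannot be told apart in that comparison. R1 ESCs with an shRNA against Rybp (shRybp) or against Wdr5 (shWdr5) were each compared with R1 ESCs carrying the empty vector (shEV), so these comparisons share both control libraries. The shEV libraries hold 41697967 and 38961268 counts in the Rybp table and 21241931 and 19731613 in the Wdr5 table. R1 ESCs labelled TF-AA mutation were compared with wild-type R1 ESCs, and the labels do not say what was mutated. RYBP phase disruption denotes RYBPfl/fl Rosa26::CreERT2 ESCs of R7.15 with a RYBP.21aa deletion, and their controls (WT.RYBP) overexpress wild-type RYBP. Both groups received 4-OHT. J1 ESCs with Tet on.RYBP received DOX or vehicle. The rTRS line carries a DOX-induced Rybp_Stat3 integration and was given DOX or left as the control (NTC). Peak lists, described last, come from Rybp+/+ and Rybp-/- ESCs, from R1 ESCs with shEV or an shRNA against Stat3 (shStat3), and from R1 ESCs with the same integration (Tet.Rybp.Stat3) with or without DOX. The sources do not state that any 2 RNA-seq libraries of a group came from separate cultures, so the p-values below measure the spread between libraries, which may be technical. In bulk ESCs, a larger share of cells with a transcript and more of it in each cell cannot be told apart.

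Libraries held 14512857 to 81049618 counts on genes. Levels are given as CPM, counts scaled to library size after TMM normalization within each table, and differences as log2 fold changes with their standard errors (SE). A gene was called when its adjusted p was under 0.05 in the quasi-likelihood test of edgeR, adjusted by Benjamini-Hochberg over all genes tested. Rybp read 110.4 and 110.2 CPM in the Rybp+/+ libraries and 24.8 and 25.0 CPM in the Rybp-/- libraries. It read 85.7 and 86.4 CPM against 35.8 and 36.6 CPM after Rybp knockdown, and 135 and 145 CPM against 522 and 535 CPM after induction in J1 ESCs. Wdr5 read 350 and 343 CPM against 60.05 and 58.2 CPM after Wdr5 knockdown. In the rTRS libraries labelled DOX, Rybp was not higher, with 102 and 99.8 CPM against 113 and 110.5 CPM (log2 fold change -0.15). Stat3 was at 191 and 188 CPM there against 159 and 172 CPM (log2 fold change 0.20), so the label of this group is not borne out by Rybp counts. ESC markers were present throughout, with Pou5f1 above 300 CPM in the mean of each group. The spermatid markers Tnp1 and Prm1 read under 0.1 CPM in the mean of each group, and summed spermatid markers stayed under 0.3 CPM in each library.

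The members lie on 9 chromosomes of mm9. Ddx4, an RNA helicase known as VASA, lies at chr13:113388541-113442518 (minus strand), and Dazl, an RNA-binding translational regulator of germ cells, at chr17:50418719-50432924 (minus strand). Piwil2, a PIWI protein, lies at chr14:70772287-70828901 (minus strand). The nuage proteins Mael and Asz1 lie at chr1:168131516-168168875 and chr6:18000964-18059061, both on the minus strand. Mov10l1, a helicase of piRNA production, lies at chr15:88813339-88885582 (plus strand). The Tudor domain genes are on the plus strand. They are Tdrd1 at chr19:56900699-56944502, Tdrd9 at chr12:113209770-113307065, Tdrkh at chr3:94217218-94236555 and Stk31 at chr6:49345603-49419500. The small RNA genes SNORA70 and U11 overlap Piwil2 and U1 overlaps Mov10l1, each on the strand of the member. The protein-coding gene BC048943 overlaps Tdrd9 and the pseudogene Gm17060 overlaps Stk31, both on the opposite strand. The strand setting of the counting was not stated, so reads of Tdrd9 and Stk31 may include those of the antisense gene.

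Promoter sequences are shown because RING1B lay over each of these start sites (below) and because PRC1.6 holds DNA-binding subunits for E-box and E2F motifs. Each runs from 250 bases before to 30 bases into the annotated start, 280 bases in all, read 5′ to 3′ on the strand of the gene from the mm9 genome with the GENCODE annotation. Capitals mark CACGTG (an E-box, the same on both strands) and TCCCGC or its reverse complement GCGGGA (an E2F core).
Ddx4, chr13:113442489-113442768: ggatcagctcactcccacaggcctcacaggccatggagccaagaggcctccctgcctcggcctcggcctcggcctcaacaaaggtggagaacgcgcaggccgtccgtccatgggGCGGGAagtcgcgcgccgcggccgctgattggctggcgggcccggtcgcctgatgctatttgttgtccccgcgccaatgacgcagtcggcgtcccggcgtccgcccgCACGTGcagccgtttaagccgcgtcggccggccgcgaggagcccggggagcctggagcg
Mael, chr1:168168846-168169125: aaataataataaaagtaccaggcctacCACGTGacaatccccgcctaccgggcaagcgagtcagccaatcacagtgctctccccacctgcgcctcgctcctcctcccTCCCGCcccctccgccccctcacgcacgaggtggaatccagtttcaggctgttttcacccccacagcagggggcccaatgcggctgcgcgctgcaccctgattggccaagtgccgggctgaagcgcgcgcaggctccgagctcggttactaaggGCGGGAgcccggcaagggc
Tdrd1, chr19:56900449-56900728: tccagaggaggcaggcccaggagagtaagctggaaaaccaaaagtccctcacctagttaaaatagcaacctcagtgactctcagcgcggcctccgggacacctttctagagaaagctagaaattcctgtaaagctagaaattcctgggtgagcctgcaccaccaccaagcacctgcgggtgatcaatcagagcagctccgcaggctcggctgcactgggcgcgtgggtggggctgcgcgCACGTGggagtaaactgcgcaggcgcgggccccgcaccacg
Tdrd9, chr12:113209520-113209799: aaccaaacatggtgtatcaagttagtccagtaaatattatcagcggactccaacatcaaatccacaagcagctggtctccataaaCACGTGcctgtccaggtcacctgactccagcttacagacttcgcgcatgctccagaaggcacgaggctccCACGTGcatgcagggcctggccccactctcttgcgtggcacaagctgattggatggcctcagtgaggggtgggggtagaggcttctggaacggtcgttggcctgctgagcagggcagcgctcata
Mov10l1, chr15:88813089-88813368: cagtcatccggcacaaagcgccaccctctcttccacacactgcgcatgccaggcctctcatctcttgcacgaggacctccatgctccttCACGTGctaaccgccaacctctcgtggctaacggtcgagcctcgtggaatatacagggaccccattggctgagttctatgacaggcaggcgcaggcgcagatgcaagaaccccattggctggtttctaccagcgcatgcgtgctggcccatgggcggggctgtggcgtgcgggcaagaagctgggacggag
Stk31, chr6:49345353-49345632: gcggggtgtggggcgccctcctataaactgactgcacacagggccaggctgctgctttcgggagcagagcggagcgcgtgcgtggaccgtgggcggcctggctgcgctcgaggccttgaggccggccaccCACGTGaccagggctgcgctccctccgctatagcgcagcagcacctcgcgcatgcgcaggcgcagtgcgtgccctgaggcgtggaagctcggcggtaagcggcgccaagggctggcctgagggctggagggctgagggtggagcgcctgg
Dazl, chr17:50432895-50433174: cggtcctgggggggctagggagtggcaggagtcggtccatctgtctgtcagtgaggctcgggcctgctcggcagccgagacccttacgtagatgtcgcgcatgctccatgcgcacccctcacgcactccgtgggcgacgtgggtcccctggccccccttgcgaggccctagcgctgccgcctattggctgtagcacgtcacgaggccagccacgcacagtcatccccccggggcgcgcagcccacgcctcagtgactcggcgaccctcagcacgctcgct

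CACGTG was found in 6 of the 10 promoters, those of Ddx4, Mael, Tdrd1, Tdrd9, Mov10l1 and Stk31. Of the 22362 protein-coding promoters of the same length, 1659 (7.42%) held it. Tdrd9 held 2 copies, whose first bases lie at -165 and -95 from the start site. The copy of Tdrd1 lies nearest to its start, at -11, followed by that of Ddx4 at -29. TCCCGC was found in 2 of the 10, Ddx4 and Mael, against 5114 (22.9%) of all promoters. Both motifs together occurred in these same 2 members and in 499 (2.23%) of all promoters. The Dazl promoter is shown as one without either motif, like those of Piwil2, Asz1 and Tdrkh. The members were rich in CG dinucleotides, with a median of 19.5 in the 280 bases against 10 for all promoters. Ddx4 held 36, more than 94.6% of all promoters did, and Tdrd9 held 10. Both motifs hold a CG, and their share among promoters of like CG content was not computed. A match is a description of letters and was not tested as a binding site.

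In unperturbed ESCs these genes were transcribed at low and unequal levels. Compared per length, in CPM per kb of the deposited gene length, Ddx4 was highest in the Rybp+/+ libraries with 6.44 ± 0.11 (SD, n = 2). Mael followed with 6.08 ± 0.04, Piwil2 with 3.49 ± 0.35, Dazl with 3.04 ± 0.14 and Stk31 with 3.02 ± 0.12 CPM per kb. The ranges of Dazl and Stk31 overlapped, and all other neighbours in this order were apart. Mov10l1 (1.22), Tdrkh (0.87), Tdrd1 (0.39) and Tdrd9 (0.04 CPM per kb) were lower, and Asz1 had no count in either library. Ddx4 or Mael ranked first in each control group of the 7 tables. Tdrd9 and Asz1 ranked last in each. Dazl took the eighth place in the wild-type R1 ESCs of the TF-AA comparison, at 0.59 ± 0.18 CPM per kb, where its range overlapped that of Tdrd1.

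**Figure D1:**
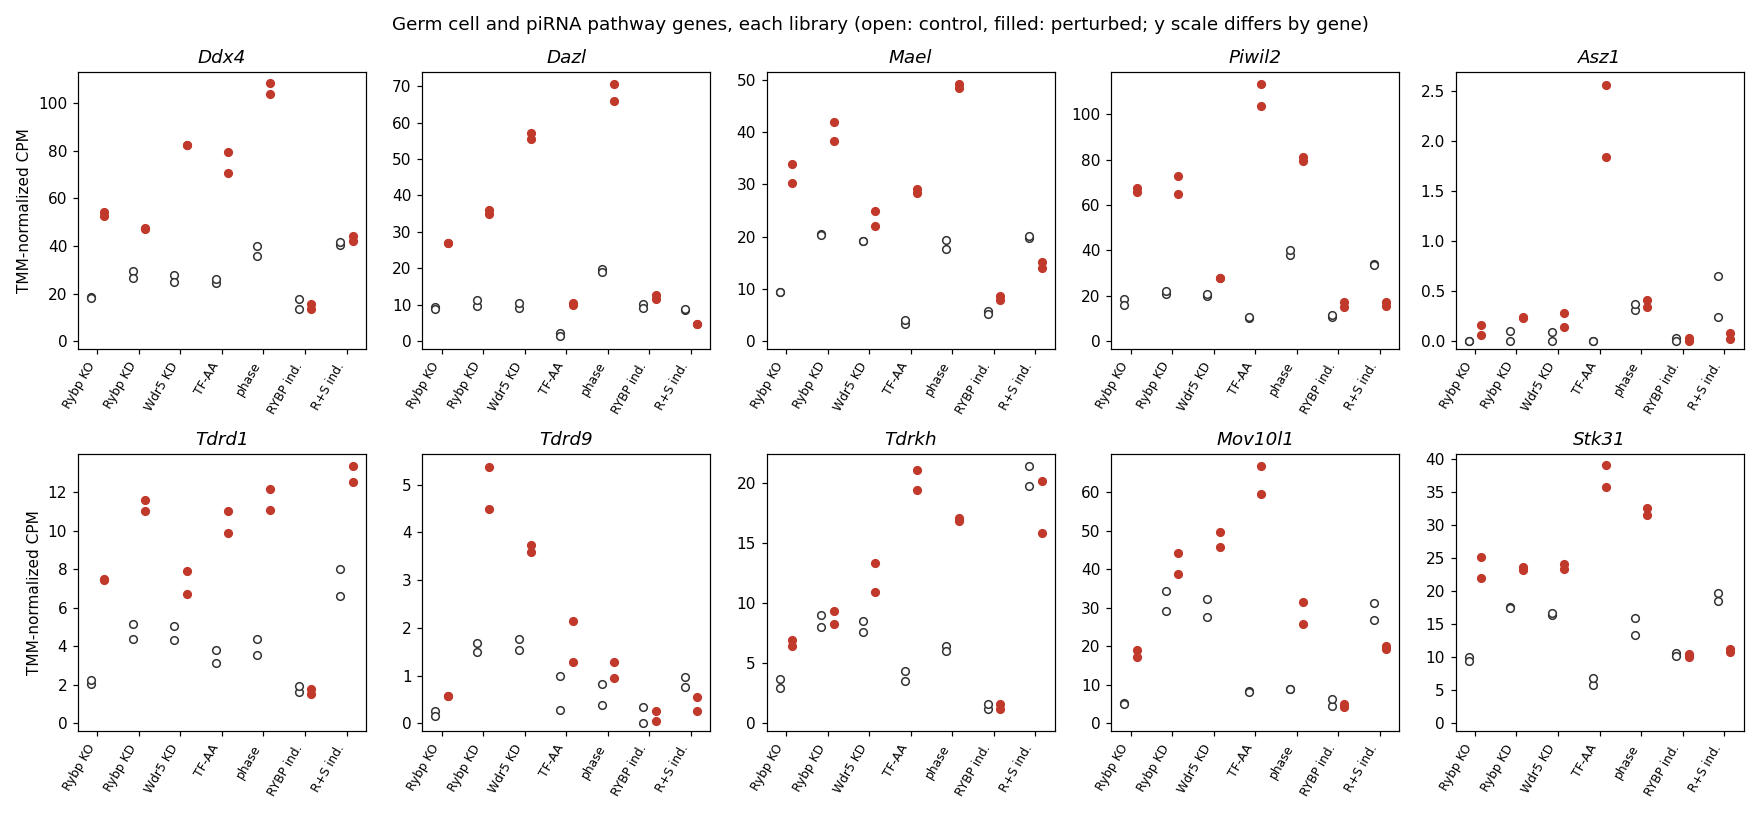
TMM-normalized CPM of each germ cell and piRNA pathway gene in each library, with 1 panel per gene and its own linear y axis from about 0. Open points are the 2 control libraries and filled points the 2 perturbed libraries of the comparison named on the x axis (KO, knockout; KD, knockdown; phase, RYBP phase disruption; ind., induction; R+S, RYBP and STAT3). Filled points lie above open points for Ddx4 and Dazl in the first 5 comparisons, and below them for Dazl in the last.

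The members were higher in the Rybp knockout. In Rybp-/- ESCs 9 members were called higher of 9 tested, and 22.8% of all 16955 genes tested were called higher (22.7% lower). No member was called lower by edgeR, none had an unadjusted p under 0.05 in that direction, and DESeq2 called none lower. Log2 fold changes ran from 1.01 to 1.96 with a median of 1.56, beside a median of 0.00 over all genes tested. Piwil2 rose most, from 18.4 and 16.0 CPM to 65.8 and 67.8 CPM (log2 fold change 1.96, SE 0.06, adjusted p = 4.8e-23). Both Rybp-/- libraries lay far above the controls, 3.89-fold in the fit.

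The germ cell regulators rose by similar amounts in the knockout. Ddx4 read 18.6 and 18.1 CPM in Rybp+/+ ESCs and 54.3 and 52.5 CPM in Rybp-/- ESCs (2.91-fold). Dazl read 9.45 and 8.87 CPM against 27.1 and 27.0 CPM (2.95-fold). Both Rybp-/- libraries lay above both controls for each gene, and libraries of a group differed little. Among the nuage and biogenesis genes, Mael rose from 9.35 and 9.44 CPM to 30.2 and 33.9 CPM (log2 fold change 1.77, SE 0.08), and Mov10l1 from 5.22 and 5.02 CPM to 17.3 and 19.0 CPM (1.83, SE 0.09). Asz1, which had no read in either Rybp+/+ library, had 12 and 5 reads in the Rybp-/- libraries and was too low to be tested. Set against a floor of 3 counts per control library, it was at least 2.95-fold higher.

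Of the Tudor domain genes, Tdrd1, which binds PIWI proteins in nuage, rose from 2.04 and 2.22 CPM to 7.52 and 7.43 CPM (log2 fold change 1.81, SE 0.14). Stk31 rose from 10.1 and 9.51 CPM to 22.0 and 25.2 CPM (1.27, SE 0.08). Tdrkh, which anchors PIWI proteins at mitochondria, rose from 3.66 and 2.97 CPM to 6.95 and 6.43 CPM (1.01, SE 0.14), the smallest change of the 9. Tdrd9, a helicase with a Tudor domain, was barely counted, with 0.27 and 0.15 CPM against 0.58 and 0.57 CPM (1.46, SE 0.54, adjusted p = 0.026 from edgeR). Its call was lost without the second Rybp+/+ library (adjusted p = 0.15 from edgeR), without the first or second Rybp-/- library (0.11 for both) and under DESeq2 (0.069).

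Some markers of other cells moved with these genes. The 4 two-cell-like markers matched (Zscan4c, Zscan4d, Zfp352 and Tdpoz4), which mark a rare state of ESC cultures, were all called higher, and their summed level went from 0.10 to 0.20 CPM in Rybp+/+ libraries to 36.1 to 36.3 CPM in Rybp-/- libraries. The 6 fibroblast markers were all called higher as well, from 56.4 to 57.2 CPM to 114 to 120 CPM in sum. None of the 6 was at 0. Oocyte markers summed to 5.19 to 6.08 CPM and 6.89 to 7.65 CPM, nearly all of it Zp3, the only one of 5 called higher. Of the 6 ESC markers 3 were called higher and 2 lower. Of the 4 primitive endoderm markers tested (Gata4, Gata6, Sox17 and Sox7) 1 was called higher and none lower. They summed to 3.69 to 4.10 CPM and 5.18 to 5.52 CPM. The part of these cells in the result was not tested.

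In R1 ESCs with Rybp knockdown, 8 members were called higher of 10 tested and none lower. Of all 16538 genes tested, 26.8% were called higher and 26.0% lower. No member was lower at an unadjusted p under 0.05 in edgeR, and DESeq2 called none lower. The median log2 fold change was 1.11, beside 0.02 over all genes tested. Dazl rose from 9.56 and 11.2 CPM to 36.1 and 34.8 CPM (3.42-fold, adjusted p = 1.9e-11 from edgeR), and Piwil2 from 20.9 and 22.1 CPM to 64.9 and 73.0 CPM (3.20-fold). Tdrd9 rose from 1.49 and 1.69 CPM to 4.49 and 5.37 CPM (3.10-fold). For these 3 genes the lowest shRybp library lay above the highest shEV library by more than 2-fold.

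Another 5 members were called higher after Rybp knockdown with smaller changes. Tdrd1 went from 4.37 and 5.17 CPM to 11.0 and 11.6 CPM (log2 fold change 1.25, SE 0.14), Mael from 20.5 and 20.3 CPM to 38.2 and 42.0 CPM (0.98, SE 0.08) and Ddx4 from 29.5 and 26.4 CPM to 47.1 and 47.7 CPM (0.76, SE 0.07). Stk31 (0.42, SE 0.09) and Mov10l1 (0.39, SE 0.09) were called with small changes. Tdrkh was at 8.04 and 9.05 CPM against 8.28 and 9.34 CPM, and its groups overlapped (0.04, SE 0.13, adjusted p = 0.81 from edgeR). Its sign turned without the first shEV library or the second shRybp library (-0.05 for both). Asz1 had 4 and 0 counts in shEV against 13 and 11 in shRybp and was not called (adjusted p = 0.081 from edgeR). Without the first shEV library Asz1 was called (0.039), and without the second its log2 fold change fell from 2.15 to 1.22.

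Here too the 4 two-cell-like markers were called higher, from 30.9 to 32.9 CPM in sum to 132 to 139 CPM. The 3 fibroblast markers tested, of 6, were called higher, from 18.6 to 18.8 CPM to 30.7 to 31.9 CPM in sum, with Dcn at 0 in each library. Of 6 ESC markers 4 were called lower and 1 higher, and their sum went from 6615 to 6970 CPM to 5175 to 5217 CPM. Of 4 primitive endoderm markers tested, 3 were called higher and 1 lower, with sums of 12.3 to 14.9 CPM and 18.5 to 19.4 CPM. The part of these shifts in the result was not tested. Scaling by library size alone moved the median of all genes by 0.16 in this table, and the share of higher among called genes from 50.8% to 71.2%. The members still numbered 8 called higher and none lower.

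In RYBP phase disruption, where the control ESCs carry wild-type RYBP, 8 members were called higher of 9 tested and none lower. Of all 14575 genes tested, 16.1% were called higher and 17.0% lower. No member was lower at an unadjusted p under 0.05 in edgeR, and DESeq2 called none lower. Rybp itself read 749 and 753 CPM in WT.RYBP ESCs and 662 and 626 CPM with the deletion. Dazl rose from 19.8 and 19.1 CPM to 70.5 and 65.8 CPM (3.50-fold, adjusted p = 3.1e-18 from edgeR). Mov10l1 rose from 8.87 and 8.92 CPM to 25.8 and 31.6 CPM (3.22-fold). Ddx4 rose from 40.2 and 35.8 CPM to 109 and 104 CPM (2.79-fold). The perturbed and control libraries were apart for the 3 genes.

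Tdrd1 (log2 fold change 1.54, SE 0.18), Tdrkh (1.45, SE 0.15), Mael (1.40, SE 0.09), Stk31 (1.13, SE 0.11) and Piwil2 (1.04, SE 0.07) rose as well in RYBP phase disruption. Tdrd9 was at 0.82 and 0.37 CPM against 0.95 and 1.28 CPM and was not called (0.90, SE 0.52, adjusted p = 0.19 from edgeR). Its log2 fold change was 1.55 without the first WT.RYBP library and 0.44 without the second, not called in either. Asz1 had 5 and 6 counts against 6 and 5, too few to be tested. The median over the 9 was 1.45, beside 0.00 over all genes tested. The 4 two-cell-like markers were called higher, from 33.2 to 35.3 CPM in sum to 308 to 316 CPM. Fibroblast markers went the other way, from 423 to 430 CPM to 343 to 366 CPM, with 3 of 6 called lower and none at 0. Of the 6 ESC markers 1 was called higher and 3 lower. Of 3 primitive endoderm markers tested 1 was called higher and none lower, with sums of 7.80 to 9.19 CPM and 10.6 to 11.5 CPM. The part of these shifts in the members' rise was not tested here.

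In R1 ESCs with the TF-AA mutation 10 members were called higher of 10 tested, and 14.4% of all 14456 genes tested were called higher (16.1% lower). Asz1 had no count in the wild-type libraries and entered the test only through its counts in the TF-AA libraries. No member was lower at an unadjusted p under 0.05 in edgeR or called lower by DESeq2. Without Asz1 the log2 fold changes ran from 1.43 to 3.37 with a median of 2.50 (2.54 with Asz1 at its lower bound), beside 0.01 over all genes tested. Piwil2 rose from 10.3 and 10.7 CPM to 114 and 104 CPM (10.4-fold, adjusted p = 2.6e-17 from edgeR). Mael rose from 3.34 and 4.05 CPM to 28.4 and 29.2 CPM (7.79-fold), and Mov10l1 from 8.41 and 8.10 CPM to 59.5 and 66.8 CPM (7.64-fold). For these 3 genes the groups were far apart, and libraries of a group lay close together.

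Asz1, a nuage protein of the piRNA pathway, had no count in either wild-type library and 37 and 48 counts in the TF-AA libraries. Against a floor of 3 counts per control library it was at least 15.1-fold higher. Stk31 rose from 5.83 and 6.82 CPM to 35.9 and 39.1 CPM (5.93-fold), Dazl from 2.15 and 1.38 CPM to 10.3 and 9.82 CPM (5.68-fold) and Tdrkh from 3.49 and 4.40 CPM to 21.1 and 19.4 CPM (5.15-fold). Ddx4 (2.96-fold) and Tdrd1 (3.01-fold) rose less. Tdrd9 was at 0.29 and 0.99 CPM against 2.14 and 1.28 CPM (log2 fold change 1.43, SE 0.48, adjusted p = 0.027 from edgeR). It was not called without the first wild-type library (0.79, adjusted p = 0.22), without the first TF-AA library (1.01, adjusted p = 0.32) or under DESeq2 (adjusted p = 0.18). Without the second wild-type library it stood at 2.55.

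Rybp was not called in the TF-AA libraries (112 and 118 CPM against 122 and 139 CPM). The 4 two-cell-like markers were called higher, from 0.10 to 0.67 CPM in sum to 33.7 to 34.3 CPM. The 3 fibroblast markers tested were called higher, from 11.0 to 11.7 CPM to 24.0 to 24.7 CPM in sum, with Col3a1 and Dcn at 0 throughout. Spermatid markers were at 0.16 CPM or less in sum. Of the 6 ESC markers 2 were called higher and 1 lower. Of 2 primitive endoderm markers tested 1 was called higher and none lower, with sums of 7.86 to 8.21 CPM and 14.0 to 14.2 CPM. Whether these cells contribute to the members' rise was not tested.

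**Figure D2:**
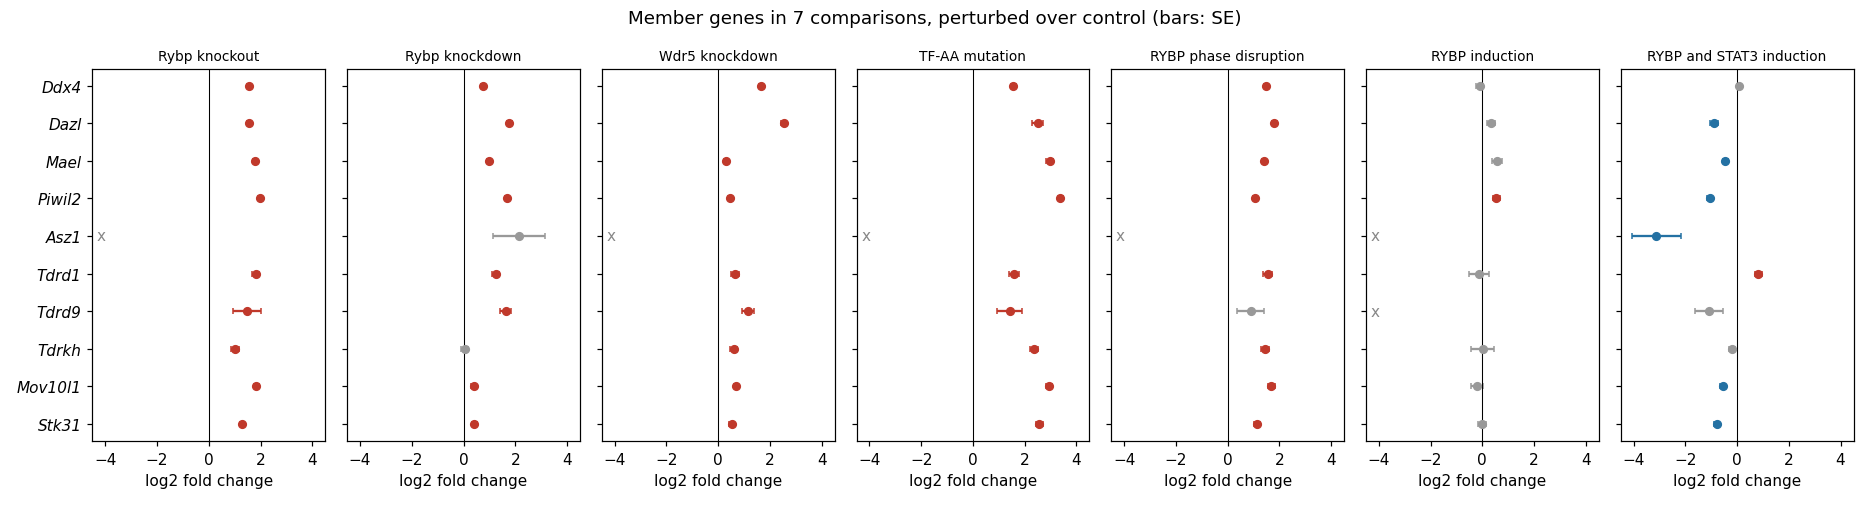
Log2 fold change of each germ cell and piRNA pathway gene in each comparison, perturbed over control, with the SE as a bar, from edgeR. Red points were called higher, blue points lower and grey points not called at an adjusted p of 0.05. A cross marks a gene that was not tested or, for Asz1 in the TF-AA mutation, had no count in the control. Points lie right of 0 in the first 5 panels, at 1.43 to 3.37 for TF-AA.

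WDR5 is a WD40 protein shared by PRC1.6 and the H3K4 methyltransferase complexes. The members were also higher after its knockdown, and here 2 germ cell regulators moved most. In shWdr5 ESCs 9 members were called higher of 9 tested, while 31.5% of all 15143 genes tested were called higher and 31.5% lower. No member was lower at an unadjusted p under 0.05 in edgeR or called lower by DESeq2. Dazl rose from 9.03 and 10.5 CPM to 55.5 and 57.2 CPM (5.77-fold, adjusted p = 6e-17 from edgeR). Ddx4 rose from 27.7 and 24.9 CPM to 82.4 and 82.6 CPM (3.14-fold), and Tdrd9 from 1.54 and 1.77 CPM to 3.74 and 3.60 CPM (2.21-fold). The remaining 6 changed by 1.23- to 1.59-fold.

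Among these 6, Mov10l1 rose from 32.2 and 27.7 CPM to 45.7 and 49.8 CPM (log2 fold change 0.67, SE 0.08) and Tdrd1 from 4.30 and 5.06 CPM to 6.73 and 7.92 CPM (0.65, SE 0.16). Tdrkh (0.59), Stk31 (0.52) and Piwil2 (0.45) were called. Mael was at 19.1 CPM in both shEV libraries against 22.0 and 24.9 CPM (0.30, SE 0.09, adjusted p = 0.0073 from edgeR). Its call was lost without the second shWdr5 library (adjusted p = 0.11) and under DESeq2 (0.083). Asz1 had 2 and 0 counts against 6 and 3 and was not tested. The median over the 9 was 0.65, beside -0.01 over all genes tested. Side by side with Rybp knockdown, which has the same shEV libraries as controls, the log2 fold change of Piwil2 was 1.68 there and 0.45 here, and that of Dazl 1.78 and 2.53. The difference between both knockdowns was not tested.

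The two-cell-like markers did not rise with the members after Wdr5 knockdown. Zscan4c and Zscan4d, the 2 tested of 4 matched, were called lower, and the sum of the 4 went from 29.2 to 30.9 CPM to 11.3 to 12.1 CPM, with none at 0 in any library. Fibroblast markers summed to 18.0 to 18.3 CPM and 15.3 to 15.7 CPM, with 1 of 3 tested called higher and 1 lower. Of the 6 ESC markers 5 were called lower and Sox2 higher, with sums of 6229 to 6563 CPM and 5177 to 5243 CPM. Of 4 primitive endoderm markers tested, 3 were called higher and 1 lower, with sums of 12.0 to 14.3 CPM and 29.5 to 30.0 CPM. Rybp was higher in the shWdr5 libraries, at 121 and 117 CPM against 79.9 and 81.3 CPM. The part of these shifts in the members' rise was not tested.

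Induction of RYBP alone in J1 ESCs left most members without a call. Of 8 tested, only Piwil2 was called higher and none was called lower, and 3.63% of all 14937 genes tested were called higher (2.39% lower). By edgeR 3 of the 8 had an unadjusted p under 0.05 in the direction higher and none in the direction lower, and DESeq2 called none in either direction. Piwil2 was at 10.5 and 11.6 CPM with vehicle and 17.3 and 14.9 CPM with DOX (1.45-fold, adjusted p = 0.016 from edgeR). Without the first DOX library this call was lost (adjusted p = 0.27), as it was under DESeq2 (0.058). Mael was at 5.84 and 5.19 CPM against 8.61 and 7.78 CPM and was not called (1.48-fold, adjusted p = 0.067), but it passed without the first vehicle library (0.041) and with a replicate block (0.040).

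Dazl was at 10.1 and 9.16 CPM with vehicle and 12.7 and 11.6 CPM with DOX (log2 fold change 0.34, SE 0.15, adjusted p = 0.22 from edgeR). Ddx4 (-0.11, SE 0.14), Tdrd1 (-0.12, SE 0.39), Tdrkh (0.01, SE 0.44), Mov10l1 (-0.20, SE 0.22) and Stk31 (-0.01, SE 0.15) had overlapping groups. Tdrd9 had 12 and 0 counts against 8 and 2, and Asz1 1 and 0 against 1 and 0, so neither was tested. The median over the 8 was 0.00, the same as over all genes tested. Two-cell-like markers summed to 0.19 to 0.52 CPM with vehicle and 3.68 to 3.82 CPM with DOX, with 1 of 2 tested, Zscan4c, called higher. Primitive endoderm markers summed to 4.87 to 4.98 CPM with vehicle and 1.63 to 2.98 CPM with DOX, with none of 2 tested called.

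In the rTRS libraries labelled DOX, most members were lower than in NTC. Of 10 tested, 6 were called lower and 1 higher, while 20.4% of all 16291 genes tested were called lower and 23.0% higher. Piwil2 fell from 33.9 and 33.7 CPM to 17.1 and 15.3 CPM (log2 fold change -1.06, SE 0.10, adjusted p = 2.6e-06 from edgeR). Dazl fell from 8.53 and 8.90 CPM to 4.80 and 4.61 CPM (-0.89, SE 0.15), and Stk31 from 18.5 and 19.7 CPM to 11.3 and 10.7 CPM (-0.79, SE 0.11). In each of these 3 genes both DOX libraries lay below both NTC libraries.

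Mov10l1 fell from 26.8 and 31.2 CPM to 20.0 and 19.3 CPM (-0.56, SE 0.10), and Mael from 19.7 and 20.1 CPM to 15.0 and 14.0 CPM (-0.45, SE 0.11). Asz1 had 33 and 13 counts in NTC and 4 and 1 in the DOX libraries (-3.13, SE 0.94, adjusted p = 0.017 from edgeR). It entered the test only through its counts in NTC. Its call was lost without the first NTC library (-2.26, adjusted p = 0.28) or the second DOX library (-2.49, adjusted p = 0.11), and its value was -4.34 without the first DOX library. Tdrd1 went against the others, from 6.61 and 8.00 CPM to 13.4 and 12.5 CPM (0.83, SE 0.14, adjusted p = 0.00038 from edgeR). Ddx4 was at 40.6 and 41.8 CPM against 42.3 and 44.4 CPM (0.07, SE 0.08), and was not called.

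Tdrd9 (-1.08, SE 0.56) and Tdrkh (-0.19, SE 0.12) were not called in the rTRS comparison. Tdrkh was called lower without the first DOX library (-0.37, adjusted p = 0.029 from edgeR), and Tdrd9 stood at -1.75 without it. Without the second DOX library both were nearer to 0, Tdrkh at -0.029 and Tdrd9 at -0.63, and neither was called. The median over the 10 was -0.68, beside 0.00 over all genes tested. ESC markers were lower in the same libraries, 5 of 6 called lower with sums of 3861 to 4095 CPM and 2366 to 2532 CPM. Two-cell-like markers were lower as well, at 18.8 to 19.5 CPM against 8.52 to 8.99 CPM, with Zscan4c and Zscan4d of 3 tested called lower. Primitive endoderm markers summed to 2.94 to 2.96 CPM against 1.63 to 1.64 CPM, with 1 of 4 tested called lower and none higher. The part of these shifts in the members' fall was not tested.

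Across the 7 comparisons, Piwil2 and Tdrd1 were each called higher in 6. Ddx4, Dazl, Mael, Mov10l1 and Stk31 were each called higher in 5, Tdrd9 and Tdrkh in 4, and Asz1, tested in 3, in 1. Ddx4, Tdrd1, Tdrd9 and Tdrkh were called lower in none of them by edgeR. By the root mean square difference of log2 fold changes over the 7 comparisons, the genes most like Dazl among 13126 were Gm11620 (0.50), Ppp1r3d (0.51), Fbp2 (0.56), Myh7 (0.60) and Taf7l (0.60). Those most like Ddx4 were Plekha6 (0.39), Ccdc88b (0.45), Atp2b4 (0.45), Hoxb9 (0.46) and Brdt (0.46). Taf7l and Brdt are known from spermatogenesis. Among the members, Ddx4 was the nearest to Dazl (0.75), and Tdrd1 the nearest to Ddx4 (0.52). The Rybp and Wdr5 knockdowns share their controls in this measure.

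Of 17 other genes of the piRNA pathway, 8 were called higher and 5 lower in Rybp-/- ESCs, with all 17 tested, beside 22.8% and 22.7% of all genes. Their median log2 fold change was 0.58. Henmt1, the piRNA 2′-O-methyltransferase, rose from 0.06 and 0.02 CPM to 0.49 and 0.68 CPM. Spocd1, which links piRNAs to DNA methylation, rose from 0.025 CPM in both Rybp+/+ libraries to 0.32 and 0.16 CPM, and Fkbp6, a co-chaperone, from 0.90 and 0.86 CPM to 4.68 and 3.96 CPM. Tdrd5 (log2 fold change -0.65), Pld6 (-0.63) and Tdrd12 (-0.60) fell. Tdrd12, more abundant than these, fell from 108 and 101 CPM to 67.8 and 69.6 CPM.

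Rybp knockdown gave 8 higher and 3 lower of 17 tested, beside 26.8% and 26.0% of all genes. Tdrd7 (1.95), Tdrd6 (1.46) and Tex15 (1.42) rose, and Pld6 (-0.63), Tdrd12 (-0.27) and Pnldc1 (-0.24) fell. The TF-AA mutation gave 8 higher and 1 lower of 15 tested (14.4% and 16.1% of all genes), with Fkbp6 (3.49), Gpat2 (2.44) and Piwil1 (2.21) higher and Tdrd12 (-0.74) lower. RYBP phase disruption gave 4 higher and 4 lower of 15 tested (16.1% and 17.0% of all genes), with Fkbp6 (3.37), Henmt1 (2.03) and Gpat2 (1.29) higher and Tdrd12 (-1.11), Mybl1 (-0.64) and Pnldc1 (-0.59) lower. Tdrd12, which codes for a Tudor domain helicase, thus fell in each of these comparisons.

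Wdr5 knockdown gave 7 higher and 4 lower of 16 tested, beside 31.5% of all genes in each direction. Spocd1 (3.07, from 0.23 and 0 CPM to 1.03 and 1.10 CPM), Tdrd7 (2.15) and Mybl1 (1.87) rose, and Tdrd12 (-1.23), Gtsf1 (-1.05) and Exd1 (-0.80) fell. Mybl1 codes for the transcription factor that drives pachytene piRNA genes. RYBP induction gave 3 higher and none lower of 15 tested (3.63% and 2.39% of all genes), Gpat2 (1.08), Tdrd12 (0.66) and Rnf17 (0.56). In the rTRS libraries labelled DOX 9 were called lower and 2 higher of 16 tested (20.4% and 23.0% of all genes), with Gtsf1 (-1.88), Piwil4 (-1.73) and Gpat2 (-0.84) lower and Tdrd7 (1.55) and Tdrd5 (1.19) higher. Gpat2, which is needed for piRNA production in germ cells, was called in all 7 comparisons, higher in 6 and lower in the rTRS comparison.

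Of 14 listed regulators of germ cell identity, 12 were tested in the knockout, and 7 were called higher and 2 lower, beside 22.8% and 22.7% of all genes. They were led by Sohlh1 (3.22), Figla (1.95) and Nobox (1.91), with Dnd1 (-0.71) and Prdm1 (-0.42) lower. Sohlh2, a spermatogonial transcription factor, rose from 10.1 and 9.10 CPM to 29.9 and 30.5 CPM there. It also rose in the TF-AA mutation (2.18) and in RYBP phase disruption (1.27), and fell after Wdr5 knockdown (-1.10) and in the rTRS libraries labelled DOX (-0.80). Prdm1, which specifies primordial germ cells, fell in the knockout, the Rybp knockdown (-0.34), the TF-AA mutation (-1.25) and phase disruption (-1.20), and rose with RYBP induction (0.65). The counts higher and lower were 3 and 2 of 11 tested after Rybp knockdown, near the 26.8% and 26.0% of all genes, and 3 and 4 of 10 after Wdr5 knockdown, near the 31.5% in each direction. They were 3 and 3 of 9 in the TF-AA mutation (14.4% and 16.1% of all genes) and 5 and 3 of 9 in phase disruption (16.1% and 17.0%). They were 2 and 0 of 9 with RYBP induction (3.63% and 2.39%, edgeR) and 0 and 5 of 11 in the rTRS comparison (23.0% and 20.4%). Counts this small describe these genes and are not read as a result about the list.

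Of the 14 subunits of PRC1.6, 4 were called higher and 6 lower in Rybp-/- ESCs, beside 22.8% and 22.7% of all genes. After Rybp knockdown 2 were called higher and 12 lower, beside 26.8% and 26.0%, with Rybp itself among those lower in both. Counts higher and lower were 4 and 6 after Wdr5 knockdown (31.5% of all genes each way). They were 2 and 2 in the TF-AA mutation (14.4% and 16.1%) and 3 and 9 in phase disruption (16.1% and 17.0%). They were 1 and 0 with RYBP induction (3.63% and 2.39%) and 2 and 7 in the rTRS comparison (23.0% and 20.4%). E2f6, the subunit that binds E2F motifs, was called higher in the knockout (0.64), the Rybp knockdown (0.73), the Wdr5 knockdown (0.48), the TF-AA mutation (1.12) and phase disruption (0.41). Pcgf6 was called lower in the knockout (-0.34), the Rybp knockdown (-0.22), the Wdr5 knockdown (-0.30) and phase disruption (-0.27). Of 8 genes of DNA methylation, 1 was called higher and 5 lower in the knockout (22.8% and 22.7% of all genes). Dnmt3a (-0.73), Dnmt3b (-0.64) and Dnmt3l (-0.43) fell there. In the TF-AA mutation 3 of the 8 were lower (16.1% of all genes), with Dnmt3l at -1.34, and none was higher in edgeR. In the Rybp knockdown 1 was higher and 7 were lower (26.8% and 26.0% of all genes), and the one that rose was Dnmt3l (0.22). The Wdr5 knockdown had 3 higher and 3 lower (31.5% of all genes each way), and the phase disruption had 1 higher and 5 lower (16.1% and 17.0%). RYBP induction had 2 higher and 1 lower (3.63% and 2.39%), and the rTRS comparison had 2 higher and 5 lower (23.0% and 20.4%).

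RING1B, the catalytic subunit of PRC1, had a peak within 2500 bp of the start site of all 10 members in the Tet.Rybp.Stat3 ESCs without DOX. Such a peak was listed for 52.4% of the 22367 protein-coding promoters. The lists give the fold enrichment of a peak over background, and replicates were merged or single, so no test between lists was made. Fold enrichment at the members ran from 8.11 at Tdrd9 to 35.7 at Ddx4, with a median of 24.0 beside 5.30 over all peaks of the list. Ddx4, Mael (30.7), Tdrkh (29.6), Tdrd1 (24.9), Dazl (24.2) and Stk31 (23.8) stood above the 90th percentile of the list, where 13.0% of promoters with a peak stand. Each of the 10 peaks covered the start site, and they were 638 to 1710 bp wide.

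In R1 ESCs with the empty vector, 9 members had a RING1B peak, all but Asz1, while 43.6% of promoters had one. Ddx4 again led with a fold enrichment of 38.7, followed by Tdrkh (25.3) and Tdrd1 (22.7), and Tdrd9 was lowest (5.54). The same 9 had a peak in shStat3 ESCs, which is 1 library like shEV, beside 39.4% of promoters. The peak at Tdrd9 had a -log10 q of 1.87 there, the lowest of the 9. Fold enrichment was lower in shStat3 at 7 of the 9 and higher at 2, against lower at 48.8% of the 8102 promoters listed in both. Stk31 went from 12.9 to 19.2 and Piwil2 from 12.6 to 15.3, and Mov10l1 went from 15.1 to 8.41.

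With DOX in the Tet.Rybp.Stat3 ESCs, all 10 RING1B peaks were still listed, beside 39.8% of promoters, and the fold enrichment of each was lower than without DOX. It was lower at 87.8% of all 8782 promoters listed in both, so the direction at the members was that of most promoters. The median ratio of fold enrichment with over without DOX was 0.67 for the members and 0.72 for all promoters. It was lowest at Tdrd9 (0.59) and Mael (0.60) and highest at Tdrkh (0.91). Fold enrichment depends on the depth and background of its own library, which these lists do not give.

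**Figure D3:**
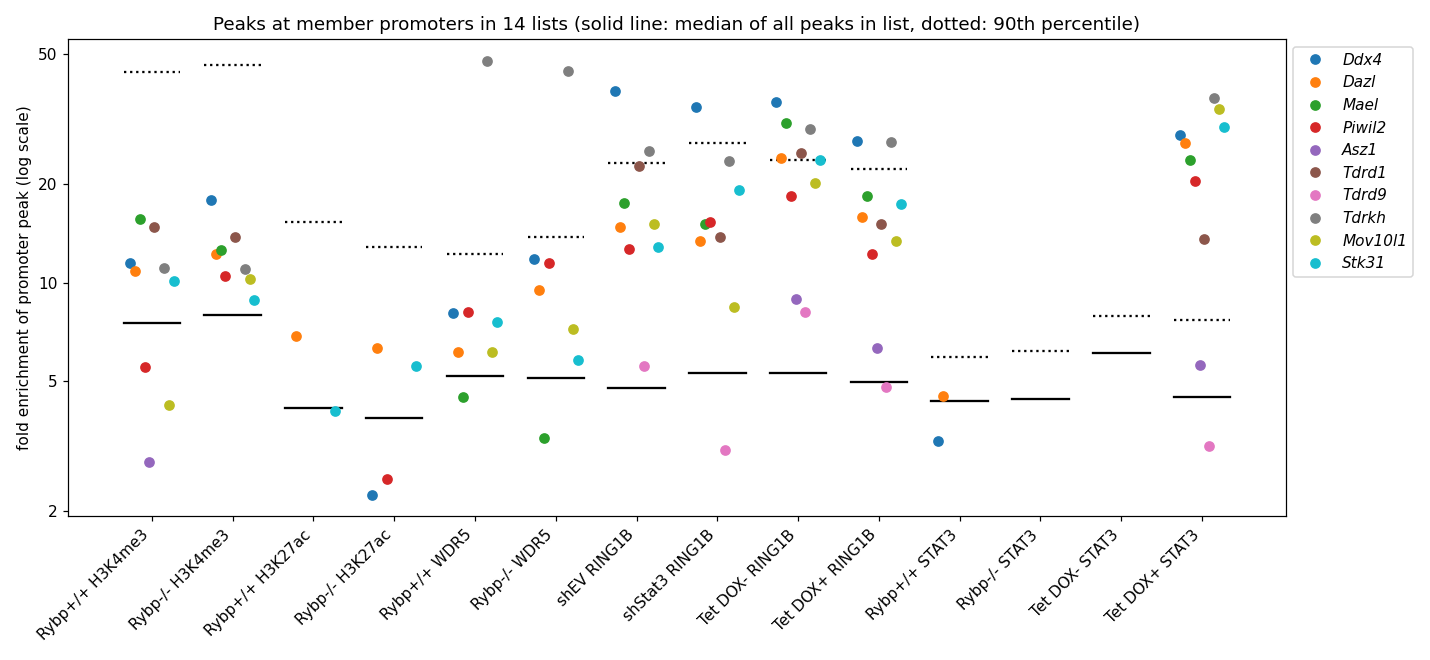
Fold enrichment over background (log scale) of the promoter peak of each germ cell and piRNA pathway gene in 14 peak lists, 1 point per gene with a peak. The solid line is the median of all peaks of the list and the dotted line their 90th percentile. RING1B peaks of the members lie at 8.11 to 35.7 without DOX, and STAT3 peaks with DOX lie far above the dotted line for 8 of 10 genes.

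The STAT3 lists without and with DOX differed at these promoters. Without DOX none of the 10 had a STAT3 peak, beside 8.31% of promoters. With DOX all 10 had one, beside 54.9% of all promoters and 92.3% of the 11731 promoters that had RING1B without DOX. The list without DOX held 2816 peaks and that with DOX 30663. Fold enrichment with DOX was 36.7 at Tdrkh, 34.1 at Mov10l1, 29.9 at Stk31, 28.3 at Ddx4, 26.7 at Dazl, 23.7 at Mael, 20.5 at Piwil2 and 13.6 at Tdrd1. These 8 peaks stood above the 99th percentile of the list, where 2.00% of promoters with a peak stand. Asz1 (5.61) and Tdrd9 (3.15) did not. In R7.15 ESCs STAT3 peaks, from 1 library per genotype, were listed at Ddx4 (3.27) and Dazl (4.51) in Rybp+/+ ESCs and at none of the 10 in Rybp-/- ESCs (6.94% and 5.90% of promoters). Both peaks were weak, with a -log10 q of 2.73 and 4.10, and neither was kept at a -log10 q of at least 5.

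H3K4me3, a mark of active and of bivalent promoters, was listed at 9 of the 10 promoters in Rybp+/+ ESCs, all but Tdrd9, beside 65.8% of all promoters. The fold enrichment was moderate, from 2.82 at Asz1 to 15.7 at Mael with a median of 10.8, and none of the 9 reached the 90th percentile of the list, above which 28.8% of promoters with a peak stand. In Rybp-/- ESCs 8 had a peak, all but Asz1 and Tdrd9, beside 65.8% of promoters. Mov10l1 went from 4.22 to 10.2, Piwil2 from 5.50 to 10.5 and Ddx4 from 11.5 to 17.9. Tdrkh was at 11.1 and 11.0, and Mael went from 15.7 to 12.6. In all, fold enrichment was higher in Rybp-/- ESCs at 4 of 8 members and at 55.3% of promoters listed in both.

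H3K27ac, a mark of active promoters and enhancers, was rare at these promoters. It was listed at Dazl (fold enrichment 6.86) and Stk31 (4.03) in Rybp+/+ ESCs, 2 of 10, beside 49.5% of all promoters. Among promoters with H3K4me3, 73.5% had an H3K27ac peak, and 2 of the 9 members did. In Rybp-/- ESCs peaks were also listed at Ddx4 (2.24) and Piwil2 (2.50), 4 of 10 in all, beside 52.4% of promoters. These 2 added peaks stood at percentile 1.24 and 4.599 of fold enrichment in their list, and neither had a -log10 q of 5. At Ddx4 it was 1.67, so this peak is missing from a list held to a -log10 q of 2. Dazl (6.29) and Stk31 (5.56) kept a peak. Peaks were also sought over each gene and 10000 bp on each side. In Rybp+/+ ESCs this gave 1 peak each at Ddx4, Piwil2, Tdrd1 and Tdrd9, outside the promoter window. Stk31 had 3 peaks there, its promoter peak among them. No share over all genes was computed for such peaks.

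WDR5 was listed at the same 7 promoters in both genotypes, those of Ddx4, Dazl, Mael, Piwil2, Tdrkh, Mov10l1 and Stk31, beside 44.9% of promoters in Rybp+/+ and 47.2% in Rybp-/- ESCs. Tdrkh stood out with a fold enrichment of 47.9 and 44.5, at percentile 99.7 and 99.4 of the lists. Dazl went from 6.15 to 9.52, Ddx4 from 8.05 to 11.8 and Piwil2 from 8.12 to 11.5, and Mael from 4.48 to 3.34. Values were higher in Rybp-/- ESCs at 4 of 7 members and at 56.1% of promoters listed in both.

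**Figure D4:**
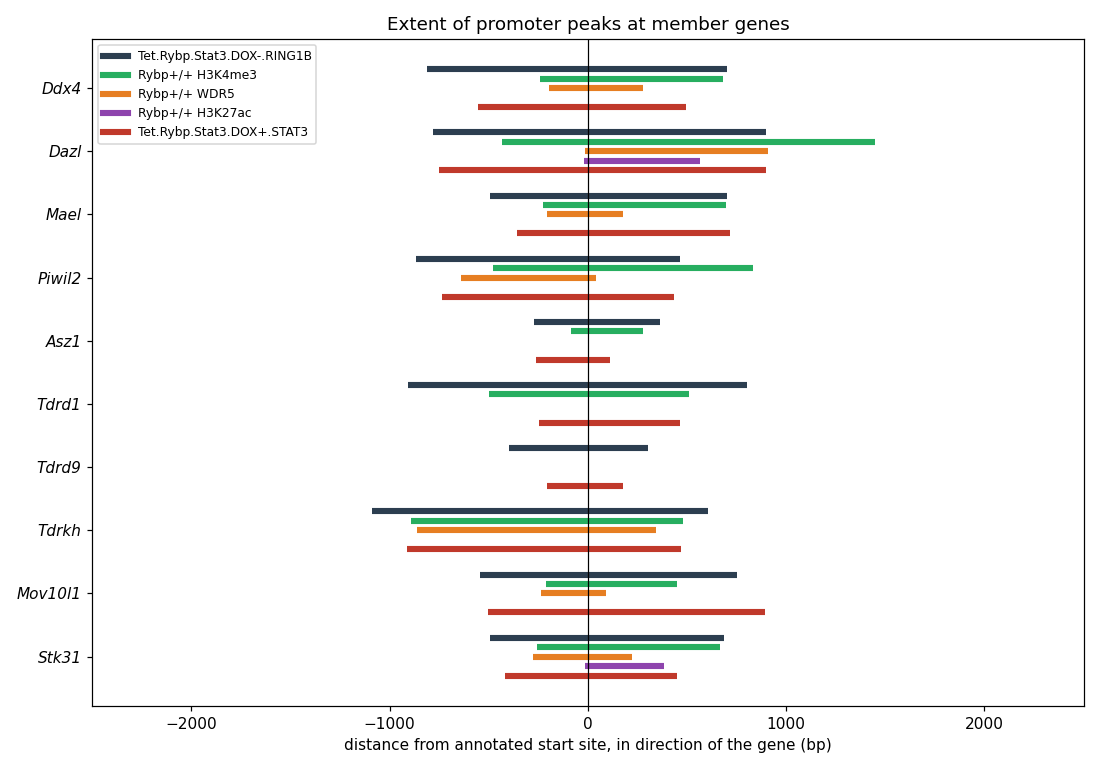
Extent of promoter peaks at each germ cell and piRNA pathway gene, in bp from the annotated start site in the direction of the gene, for 5 of the peak lists in separate colours. RING1B peaks without DOX cover the start site at all 10 genes and are 638 to 1710 bp wide, and H3K27ac peaks are drawn for Dazl and Stk31.

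The calls were set beside those of other genes with RING1B and H3K4me3 peaks. Promoters with both H3K4me3 in Rybp+/+ ESCs and RING1B in shEV ESCs numbered 9690, including 8 members. Of these promoters 68.5% also had H3K27ac in Rybp+/+ ESCs, beside 2 of the 8 members. The class was thus not matched to the members in H3K27ac, and it was not matched in the strength of RING1B peaks. Without the members, 25.8% of the 8698 such genes tested were called higher in the knockout. That share was 34.2% in the Rybp knockdown, 34.7% in the Wdr5 knockdown, 15.0% in the TF-AA mutation, 16.8% in phase disruption and 4.16% with RYBP induction. In the rTRS comparison 19.4% were called lower and 30.2% higher. The share called higher among these genes was thus near that of all genes tested in the knockout, TF-AA mutation and phase disruption. In the Rybp knockdown it was above the 26.8% of all genes. The share called lower was 27.1% in the knockout, 26.6% in the Rybp knockdown and 31.7% in the Wdr5 knockdown. It was 19.4% in the TF-AA mutation, 18.3% in phase disruption and 3.06% with RYBP induction.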

How the data were processed

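RNA-seq of 26 ESC libraries, in 7 tables, and 14 peak lists were used, of 96 samples in the series. ChIP-seq of the TF-AA and phase disruption ESCs was not analysed here. Per the study's methods, RNA-seq reads were trimmed with Trim Galore, aligned to mm9 with STAR and counted per gene with HTSeq. The deposited counts are not normalized, and gene length was taken from a deposited column. Rows that name no gene (13.7% to 26.5% of aligned reads where a table lists them) were left out. For H3K4me3, H3K27ac and WDR5 the authors aligned reads with Bowtie2 and called peaks with MACS2 against input on merged replicates. For RING1B and STAT3 these settings are not given in the sources used here, and the shEV, shStat3, Rybp+/+ STAT3 and Rybp-/- STAT3 lists come from 1 library each. The deposited lists give fold enrichment (a ratio over background) and -log10 q, whose lowest value was 1.01 to 1.38, under the -log10 q of 2 that the methods' FDR cutoff for H3K4me3, H3K27ac and WDR5 corresponds to. Depth behind the peaks is unknown, so they carry no interval.

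Each table was fitted alone with edgeR 4.0.16 (R 4.3.3): TMM factors, filterByExpr, the quasi-likelihood test of perturbed against control libraries, Benjamini-Hochberg adjustment over all genes tested, and no replicate block. The procedure was tested on simulated data. Floors (3 counts per library) cover counting error only. A peak was placed at a promoter when it overlapped the GENCODE start site ± 2500 bp by at least 1 bp. Some count columns carry short names (WT, NTC, EV) and were matched through the groups of their own table. The second phase disruption column (RphaseMut_R2) and the second rTRS DOX column (S5-DOX_R2) are named unlike the first of their group and were matched by table, condition and replicate number.

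The members and the lists were chosen with earlier results of these data known. All 10 members are named, with the targeted genes and the 5 genes most like Dazl and most like Ddx4. From each list and comparison, up to 3 genes called higher and 3 called lower with the largest change may be named, and the values of Sohlh2, Prdm1, Gpat2, Tdrd12, E2f6 and Pcgf6 outside that rule were added after they were seen. Alternatives were RLE factors, library size only, DESeq2 1.42.0, no filter, a replicate block, leaving out each library, and for peaks a window of 1000 bp, a -log10 q of at least 5 and an overlap of 50% of the peak.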

Additional observations from a re-analysis of the deposited data

Results flagged for a closer look

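6 of the 63 genes in the lists were called in opposite directions in both models of RYBP loss, with no overlap between libraries in either, of 38 genes called in both (15.8%). Over all genes the same held for 1505 of 4748 called in both (31.7%). The difference between the knockout in R7.15 ESCs and the knockdown in R1 ESCs was not tested, since each has its own table. Tdrd5, a Tudor domain protein of nuage, had a log2 fold change of -0.65 in the knockout and 1.15 in the knockdown. Mybl1, a transcription factor of male meiosis, had -0.40 and 0.81. The histone deacetylases Hdac1 (0.11 and -0.54) and Hdac2 (0.21 and -0.44) were higher in the knockout and lower in the knockdown. Dnmt3l, a cofactor of DNA methylation, had -0.43 and 0.22, and Setdb1, an H3K9 methyltransferase, had 0.14 and -0.35. No member of the 10 was among them.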

How the results depend on the processing

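Of 753 values recomputed under an alternative, 720 kept their direction and their side of the threshold (counts: within 1.5 times). With RYBP induction, the number of members called higher (1) was 0 under DESeq2 and 2 with a replicate block, and 0 to 2 without 1 library. At a -log10 q of at least 5, members with H3K27ac in Rybp-/- ESCs went from 4 to 2 and those with STAT3 in Rybp+/+ ESCs from 2 to 0. Log2 fold changes turned sign only for members not called. Without 1 library, Tdrkh in the Rybp knockdown ran from -0.049 to 0.13. With RYBP induction, Ddx4 ran from -0.29 to 0.11, Tdrd1 from -0.25 to 0.0080, Tdrkh from -0.21 to 0.25, Mov10l1 from -0.42 to 0.068 and Stk31 from -0.043 to 0.018, and Tdrkh was -0.0090 by library size only. The cause was not tested.

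The labels give replicate numbers but no pairing. Deviations of same-numbered libraries correlated at -0.02 to 0.09 in 5 comparisons, 0.27 in the TF-AA and 0.39 in the rTRS comparison, and with 2 pairs each this does not settle whether the numbers pair them. The replicate block changed no other count of members called. Tdrd9 and Asz1 had few counts in most libraries, so small differences of these genes were not detectable.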
